A study of Mus musculus with 8 samples.

Results

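The collagen genes described here are the 44 genes of the mouse whose symbols name a collagen alpha chain, Col followed by a type number, the letter a and a chain number, out of 32287 features in the cell libraries and 32285 in the tissue sections. They were chosen by name alone, with no measured value. By the kind of assembly their chains form, 11 were fibrillar, 6 belonged to the basement membrane network, 6 to beaded filaments, 1 to anchoring fibrils, 3 to short chain networks, 9 were fibril-associated, 4 transmembrane, 2 multiplexins and 2 of other kinds. A UMI (unique molecular identifier, 1 counted molecule) was found for 43 of them in the small intestine cells, 42 in the large intestine cells and 43 in the sections. At least 100 UMIs were counted for 17, 23 and 29 of them, and comparisons were limited to these. The other 27 in the small intestine cells, 21 in the large intestine cells and 15 in the sections fell below that minimum.

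Collagens are the main structural proteins of the matrix between cells. Each molecule is built of alpha chains wound into a helix, which are modified in the endoplasmic reticulum, secreted, trimmed and crosslinked outside the cell. Fibrillar collagens such as types I, III and V carry tension, type IV forms the sheet under epithelium and around vessels and muscle cells, and type VI forms beaded filaments close to cells. In the gut wall they are known from the submucosa, the layers of muscle and the thin stroma around crypts and in villi.

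The study profiled mouse intestine by 10x single-cell RNA-seq and by 10x Visium, in which tissue sections lie on spots of barcoded capture probes. The animals were C57BL/6, and stem cells were sorted from Lgr5-eGFP-ires-CreERT2 mice, in which cells with an active Lgr5 gene carry a fluorescent reporter, on the C57BL/6 background. For the cell libraries, whole small intestine and whole large intestine were digested separately, and 50000 living cells were sorted with LGR5+ stem cells and CD31+ PDPN+ LYVE1+ lymphatic endothelial cells enriched, so cell class shares reflect that sort. For Visium, intestinal tubes were cryosectioned at 10 µm and handled by the immunofluorescence protocol, in technical duplicate (2 sections of each tissue). The titles of all sections begin with WT (wild type). The labels give no treatment for these samples. Age and number of animals were not given in the sources used here, and 2 libraries of small intestinal organoids were not used here.

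With 1 cell library of each tissue, and sections in technical duplicate, no test across animals could be made, and no p-value is given. A difference was called only when it reached 2-fold (log2 of at least 1), in both sections where there were sections, and intervals are exact 95% intervals for counting error only. Of 8842 and 8646 barcodes, 2695 small intestine cells and 5882 large intestine cells were kept, with medians of 11810 and 21761 UMIs, and 25 barcodes occurred in both libraries. The sections held 2094 and 2571 spots in the small intestine (24355871 and 30091011 UMIs) and 2094 and 2179 in the large intestine (41256923 and 43832840 UMIs). A spot is a small area that holds several cells. Levels are UMIs per 1000000 UMIs (CPM), scaled to the total of the class, section or region, and they are compared for 1 gene at a time, since detection differs between genes.

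Several classes were mixtures. The 91 cells of the small intestine named smooth muscle-like summed to 27414 CPM of fibroblast markers and 9239 of smooth muscle markers, so they are called mesenchymal here. In the large intestine 297 fibroblast-like, 95 smooth muscle-like and 89 pericyte-like cells were found, and the last summed to 9220 of fibroblast, 4379 of smooth muscle and 1440 of pericyte markers. Finer clustering (resolution 2) split those 89 cells into an unnamed cluster 38 of 70 cells, with 10732 of fibroblast and 87.2 of pericyte markers, and 19 pericyte-like cells with 22096 of smooth muscle, 9041 of pericyte and 718 of fibroblast markers. These 481 cells are pooled as mesenchymal unless a class is named. All 8 fibroblast markers were at 0 in the 39 small intestine blood endothelial-like cells, while in those of the large intestine pericyte markers summed to 282 and fibroblast markers to 62.8 CPM. Lymphatic markers summed to 17561 and 23571 CPM, and blood endothelial markers to 1836 and 1550, in the 347 and 205 lymphatic endothelial-like cells of small and large intestine. The 13 and 14 glia-like cells of small and large intestine, too few to enter comparisons, were mixed too: beside 6360 and 6501 CPM of glia markers they held 1108 and 2796 of fibroblast markers, and those of the small intestine held 1608 of lymphatic endothelial markers (none of 7 at 0), while in the large all 7 were at 0. Collagen genes and the pathway genes named below took no part in the clustering.

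Mesenchymal cells held most of the collagen RNA in both libraries, with a small group of chains highest in blood or lymphatic endothelium. The 91 mesenchymal cells of the small intestine carried 76.0% of all collagen UMIs, and collagens made up 1.69% of their UMIs. Fibroblast-like cells of the large intestine carried 68.3%, cluster 38 carried 14.1% and the 19 pericyte-like cells beside it 0.518%. Collagens made up 2.09%, 1.99% and 0.41% of their UMIs, against 0.866% in smooth muscle-like cells. The share was 0.273% and 0.343% in blood endothelial-like cells and 0.174% and 0.157% in lymphatic endothelial-like cells of small and large intestine. It was 0.516% and 0.702% in the 13 and 14 mixed glia-like cells.

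A gene was counted as led by a class when its level there was at least 2-fold above every other class of at least 20 cells, with any class below 3 UMIs counted as 3. Of the 17 collagens past the minimum in the small intestine, 15 were led by 1 class, where 15.2% of all 12095 genes past it were. The count was 6 under the stricter cell filter, 7 at resolution 2 and 7 with collagen and pathway genes put back into the clustering, and the cause was not tested. Mesenchymal cells led 12 (background 1.98%), blood endothelial-like cells 2 (2.18%) and lymphatic endothelial-like cells 1 (1.84%). Large intestine mesenchymal cells led 16 of 23 (3.16% of all 13591 genes), blood endothelial-like cells 4 (2.01%) and lymphatic endothelial-like cells 2 (1.64%). Of the 17 collagens past the minimum in both libraries, 12 were led by mesenchymal cells, 2 by blood endothelial-like cells and 1 by lymphatic endothelial-like cells in both. With the large intestine mesenchyme kept as separate classes 7 of 23 were led by 1 class (12.7% of all genes), and for most of the others the second-highest class was another mesenchymal one. Many of these genes reached the minimum only through the class that led them: UMIs in all other cells stayed below 100 for 11 of the 12 and 9 of the 16 led by mesenchyme, for none of 2 and 1 of 4 led by blood endothelial-like cells and for 1 of 1 and 1 of 2 led by lymphatic endothelial-like cells, small and large intestine. The counts are therefore a description only. When cells of lower quality were admitted, glia-like cells reached 21 and 22 cells, and the mesenchymal count fell to 9 and 11; the collagens concerned are named below.

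**Figure D1:**
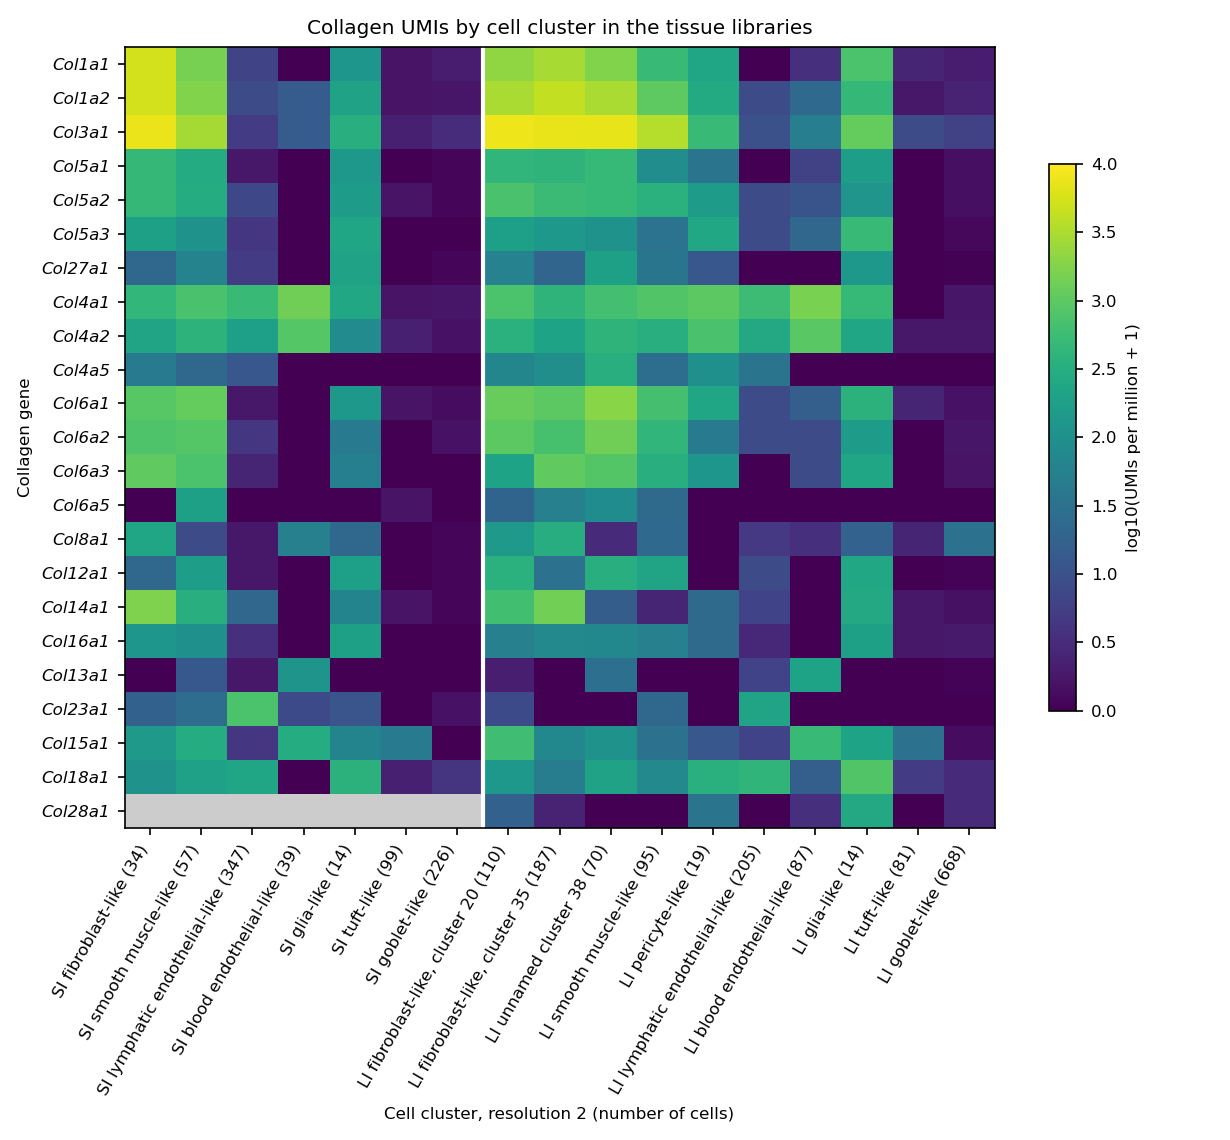
Levels of collagen genes (log scale, CPM) in mesenchymal, endothelial, glia-like, tuft-like and goblet-like clusters of the small and large intestine cell libraries, 1 library of each tissue. Among clusters of at least 20 cells, fibrillar and beaded filament chains past the minimum are highest in mesenchymal clusters. Col4a1 and Col4a2 are highest there in blood endothelial-like cells and Col23a1 in lymphatic endothelial-like cells. The 14 mixed glia-like cells of the large intestine stand above the mesenchymal clusters for Col5a3.

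All fibrillar chains past the minimum were led by the mesenchyme, 6 of 6 in the small and 7 of 7 in the large intestine. Col3a1, the single chain of type III collagen, stood at 4635 CPM in small intestine mesenchyme (95% counting interval 4473 to 4802; 97.6% of its UMIs in classes of at least 20 cells, as are the shares below) and 6647 in large intestine mesenchyme (6562 to 6733; 97.1%). Its log2 ratio over the next class was between 6.54 and 11.44 in the small intestine, where blood endothelial-like cells held 2 UMIs, and 6.87 (6.10 to 7.78) in the large intestine. Both chains of type I collagen, the most common fibril of the body, followed the same classes. Col1a1 stood at 2869 and 2081 CPM in the mesenchyme of small and large intestine. Col1a2 stood at 3034 and 3159. These 3 genes carried 96.8% or more of their UMIs in the mesenchyme of either library.

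Type V chains, which join type I in fibrils and limit their width, were led by the same cells. Col5a1 stood at 347 and 352 CPM in small and large intestine mesenchyme. The next class held no UMI, and counted as 3 it was 4.07 and 4.75 log2 lower (lower limits of the intervals 3.76 and 4.45). Col5a2 stood at 360.2 and 529.8. Col5a3 stood at 139.6 and 127, and in the large intestine its ratio over blood endothelial-like cells was 2.66 (1.67 to 3.88). Glia-like cells were too few to enter (13 and 14 cells), and were mixed as said above, and their Col5a3 level was 375 CPM in the small and 515 in the large intestine. Col27a1, a fibrillar chain known from cartilage, passed the minimum only in the large intestine, at 54.9 CPM of mesenchyme, and stood at 286 in small intestine glia-like cells.

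Beaded filament chains had the same place, with 3 of 3 and 4 of 4 led by the mesenchyme. Col6a1, Col6a2 and Col6a3, the chains of the common type VI filament, stood at 1037, 839 and 845 CPM in small intestine mesenchyme. Their large intestine levels were 1078, 784 and 662. Each was at least 5.04 log2 above the next class in the small intestine by the lower limit of its interval. No blood endothelial-like cell held a UMI of them there. Col6a5, a chain that can take the place of Col6a3, was led narrowly in the large intestine, at 43.2 CPM, with a log2 ratio of 1.15 (0.23 to 2.24) over 10 UMIs in enteroendocrine-like cells.

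Fibril-associated chains, which sit on the surface of fibrils, were led by the mesenchyme 3 of 3 times in each library. Col14a1 stood at 812 and 729 CPM in small and large intestine mesenchyme, 5.10 (4.34 to 5.98) and 5.43 (4.89 to 6.04) log2 above the next class. It was also led by the fibroblast-like cells alone in the large intestine, at 1114 CPM against 16.9 in unnamed cluster 19. Col12a1 stood at 119 and 187 in mesenchyme and Col16a1 at 109.5 and 64.3. Small intestine glia-like cells stood at 268 for Col12a1 and 322 for Col16a1, both above the mesenchyme there, in cells that also held fibroblast and lymphatic endothelial markers. Col8a1, a short chain collagen known from vessel walls, was led by mesenchyme in the large intestine at 165 CPM, 1.82 log2 (1.24 to 2.48) above enteroendocrine-like cells.

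With the looser cell filter the lead passed to glia-like cells for Col16a1, Col5a3 and Col12a1 in both libraries, for Col27a1 and Col6a5 in the large intestine, and for Col18a1, a multiplexin, in the large intestine. Under the main filter the 13 and 14 glia-like cells held Col18a1 at 607 (34 UMIs) and 806 CPM (47 UMIs), beside 1608 and 0 CPM of lymphatic endothelial markers, whose part was not tested. Col20a1, a fibril-associated chain, had 27 of its 51 small intestine UMIs in them, a level of 482. Col28a1, of the other collagens, stood at 257 CPM in large intestine glia-like cells (15 UMIs), and among larger classes no class led it.

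The mesenchyme was also described with finer clustering (resolution 2). This gave, in the small intestine, 34 fibroblast-like cells (41143 CPM of fibroblast and 132 of smooth muscle markers) and 57 cells named smooth muscle-like that still carried 19590 of fibroblast markers beside 14429 of their own. Of 12 collagens with at least 100 UMIs in either cluster, 4 were higher in the fibroblast-like cells (background 9.81%) and 1 in the other cluster (13.9%). The 4 were Col14a1, at 1662 CPM against 327, Col1a1 (5271 against 1501), Col1a2 (5312 against 1736) and Col3a1 (7656 against 2914). The 1 was Col15a1, at 145 against 302, which passed the minimum only through the cluster where it was higher. Below that minimum and so not compared, Col8a1 had 56 and 3 UMIs in the 2 clusters, Col12a1 had 5 and 74, and Col6a5 had 0 and 78.

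Finer clustering of the large intestine gave 2 fibroblast-like clusters, numbered 20 (led by Edil3 and Cxcl13 among others) and 35 (led by C7, Pcolce2 and Pi16), and the unnamed cluster 38, led by Trpa1, Nrg1, Cxcl14 and Bmp5. Col3a1 was near the same level in all of them, at 7879, 7497 and 7174 CPM. Pairs of clusters were compared for genes with at least 100 UMIs in either cluster. Of 18 such collagens, 3 were higher in cluster 20 than 35 (background 4.13%) and 3 in cluster 35 (7.14%). Cluster 20 was above cluster 35 in Col18a1 (135 against 47.0) and in Col15a1 (588 against 71.5), a multiplexin of basement membrane zones, a log2 difference of 3.04 (95% counting interval 2.73 to 3.36). It was also above in Col12a1 (360.2 against 30.8), by 3.55 (95% counting interval 3.09 to 4.04). Cluster 35 was above cluster 20 in Col14a1 (1411 against 617), Col8a1 (307 against 145) and Col6a3 (1052 against 207). Against cluster 20, 2 of 17 collagens were higher in cluster 38 (background 6.39%; Col4a5 and Col6a3) and 3 lower (8.95%; Col14a1, Col8a1 and Col15a1). Against cluster 35, 3 of 17 were higher (5.65%; Col4a5, Col12a1 and Col6a2) and 2 lower (13.6%; Col14a1 and Col8a1). Col4a5 stood at 327 CPM in cluster 38, against 66.9 and 93.9 in the fibroblast-like clusters, and Col14a1 at 14.2. Below the minimum in these pairs, Col27a1 stood at 189 against 57.5 and 18.9 and Col6a4 at 103 against 3.52 and 0.701. These clusters were described after their values were seen. Some collagens passed the minimum only through the cluster where they were higher, among them Col12a1 and Col18a1 in cluster 20 against 35. Col14a1 did so in clusters 20 and 35 against 38. The counts for pairs of clusters are therefore a description only.

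Large intestine smooth muscle-like cells (28815 CPM of smooth muscle and 3253 of fibroblast markers) were set against fibroblast cluster 35, whose fibroblast markers summed to 43062. Of 17 collagens past the minimum, 2 were higher in smooth muscle-like cells (background 9.46%) and 10 lower (17.6%), with a median log2 difference of -1.19 against -0.05 over all genes. The 2 were Col4a1 (816 against 400.3) and Col12a1 (216 against 30.8). Col1a1 was among the lower, at 487 against 2989, and Col14a1 stood at 1.57 against 1411. Col12a1 passed the minimum only through the smooth muscle-like cells and Col14a1 only through cluster 35. Such genes enter the counts and the median, which are therefore a description only. Against fibroblast cluster 20, none of 16 was higher in smooth muscle-like cells (background 11.9%) and 9 were lower (15.4%). In that cluster Col12a1, at 360.2 CPM, was above the smooth muscle-like cells and Col4a1, at 732, was near them.

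Between tissues, the 34 small intestine and 297 large intestine fibroblast-like cells could be compared. Of 18 collagens past the minimum none was higher in the small intestine (background 2.07%) and 1 was higher in the large (10.9%). This was Col12a1, at 20.7 against 154 CPM, a log2 difference of -2.90 (95% counting interval -4.53 to -1.66). Genes entered with at least 100 UMIs in either class, and Col12a1 did so only through the large intestine class. The counts between classes of the 2 tissues are therefore a description only. Col3a1 did not differ beyond counting error, at 7656 and 7640.1, log2 0.00 (95% counting interval -0.07 to 0.07). Col1a1 stood at 5271 and 2675, just short of 2-fold at 0.98 (95% counting interval 0.89 to 1.07), and past it at 1.202 with libraries scaled by the median of gene ratios. The median over the 18 was -0.01, and over all genes -0.22. Different clusters made up the class in the 2 tissues, and the result differed between the 2 large intestine clusters. Against cluster 20, with Col12a1 at 360.2, 3 of 16 collagens were higher in the small intestine (background 3.56%; Col6a3, Col14a1 and Col1a1) and 2 in cluster 20 (13.3%; Col12a1 and Col15a1). Against cluster 35, 1 of 16 was higher in the small intestine (1.97%, Col15a1) and 1 in cluster 35 (9.67%, Col4a5). Col12a1, at 30.8 there, was not past the minimum. Of those higher in the large intestine clusters, Col12a1 and Col15a1 passed the minimum only through cluster 20 and Col4a5 only through cluster 35. Cells named smooth muscle-like gave another picture, but those of the small intestine held far more fibroblast markers (27414 CPM, or 19590 at resolution 2, against 3253), whose part was not tested. Of 14 collagens 7 were higher in them than in the large intestine cells of that name (background 14.9%) and none lower (18.3%), with a median log2 difference of 1.06 against -0.28 over all genes. At resolution 2, 6 of 13 were higher (8.78%) and none lower (17.7%).

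The main basement membrane chains were led by blood endothelial-like cells. Col4a1 and Col4a2 combine into the type IV network found under nearly every epithelium and vessel. Col4a1 stood at 1349 CPM (1167 to 1552) in small intestine blood endothelial-like cells, against 612 in mesenchyme and 516 in lymphatic endothelial-like cells. The same classes of the large intestine stood at 1571, 606 and 558. Its lead over the mesenchyme was 1.14 (0.89 to 1.39) and 1.38 (1.24 to 1.51) log2, and over large intestine smooth muscle-like cells alone it was 0.95, short of 2-fold. Col4a2 stood at 867 and 938 in blood endothelial-like cells of small and large intestine, 1.43 (1.10 to 1.75) and 1.60 (1.42 to 1.77) log2 above mesenchyme. Both chains were thus spread over more classes than the fibrillar ones, and blood endothelial-like cells, being few, held only 15.2% of the small intestine Col4a1 UMIs.

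Col4a5 and Col4a6, the minor type IV chains of epithelial and smooth muscle basement membranes, were too rare to compare in the small intestine (38 and 8 UMIs). Col4a5 of the large intestine was led by the mesenchyme at 108 CPM, 1.68 log2 (1.02 to 2.43) above lymphatic endothelial-like cells. Within the mesenchyme it was highest in cluster 38, at 327 CPM, against 103 (9 UMIs) in the 19 pericyte-like cells and 83.8 in fibroblast-like cells. Col4a6 stayed below 100 UMIs there, with 34 UMIs in fibroblast-like cells, 38 in cluster 38 and 2 in the 19 pericyte-like cells. Its level was 77.1 CPM in cluster 38 against 21.1 and 11.2 in clusters 20 and 35.

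These 4 genes lie head to head in 2 pairs, and both genes of a pair stood on the same side in the sections described below, so their promoters are shown. Sequences are from RefSeq on GRCm38.p6, from 250 bases before to 50 after each start, 5′ to 3′ on the gene's own strand. They are in lower case, with capitals for each CCAAT box (CCAAT, or ATTGG on the other strand) and GC box (GGGCGG, or CCGCCC on the other strand). The windows are chr8:11312777-11313076 on the minus strand for Col4a1, chr8:11312555-11312854 on the plus strand for Col4a2, chrX:141475169-141475468 on the plus strand for Col4a5 and chrX:141474027-141474326 on the minus strand for Col4a6.
Col4a1: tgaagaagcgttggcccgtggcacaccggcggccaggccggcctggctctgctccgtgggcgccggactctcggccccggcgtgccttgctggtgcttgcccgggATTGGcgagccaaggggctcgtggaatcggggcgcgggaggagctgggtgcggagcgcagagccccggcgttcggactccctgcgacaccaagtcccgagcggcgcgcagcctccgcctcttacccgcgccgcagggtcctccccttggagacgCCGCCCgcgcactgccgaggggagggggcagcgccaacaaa
Col4a2: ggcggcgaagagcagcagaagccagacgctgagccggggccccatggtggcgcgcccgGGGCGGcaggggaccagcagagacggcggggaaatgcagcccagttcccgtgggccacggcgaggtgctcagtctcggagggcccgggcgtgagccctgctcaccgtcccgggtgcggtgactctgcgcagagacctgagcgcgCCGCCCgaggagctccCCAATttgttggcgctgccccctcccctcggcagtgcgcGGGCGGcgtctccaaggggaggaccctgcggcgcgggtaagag
Col4a5: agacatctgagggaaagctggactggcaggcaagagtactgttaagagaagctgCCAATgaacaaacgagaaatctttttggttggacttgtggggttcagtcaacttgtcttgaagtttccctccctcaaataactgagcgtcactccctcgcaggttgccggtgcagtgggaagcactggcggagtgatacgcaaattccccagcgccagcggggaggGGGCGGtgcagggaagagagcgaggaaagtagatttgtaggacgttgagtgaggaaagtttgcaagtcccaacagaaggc
Col4a6: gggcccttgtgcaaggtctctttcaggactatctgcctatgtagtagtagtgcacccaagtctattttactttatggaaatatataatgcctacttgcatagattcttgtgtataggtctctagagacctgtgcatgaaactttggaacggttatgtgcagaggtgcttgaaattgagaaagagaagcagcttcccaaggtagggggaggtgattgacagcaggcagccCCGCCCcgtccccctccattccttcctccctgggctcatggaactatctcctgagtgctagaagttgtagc

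The starts of Col4a1 and Col4a2 are 21 bases apart on opposite strands, so their windows overlap by 78 bases (chr8:11312777-11312854), while those of Col4a5 and Col4a6 are 1343 bases apart. Counting overlapping matches on both strands, Col4a1 has 1 CCAAT box and 1 GC box, Col4a2 has 1 and 3, Col4a5 has 1 and 1 and Col4a6 has 0 and 1, and none of the 4 holds TATAAA. In all 32851 windows of this length, 37.4% hold a CCAAT box, 35.7% a GC box and 13.6% TATAAA. Windows were found for 35 of the 44 collagen genes, 38 in all, of which 13 hold a CCAAT box, 23 a GC box and 5 TATAAA. A match is a description of the letters only.

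Lymphatic endothelial-like cells led Col23a1, a transmembrane collagen whose outer part can be shed, in both libraries. It stood at 734 CPM (687 to 783; 906 UMIs, 93.1% of the gene's) in the small intestine and 218 (181 to 259.8; 123 UMIs) in the large. The lead over the next class was 5.03 log2 (4.30 to 5.87) in the small intestine and 3.42 (2.59 to 4.37) in the large, over smooth muscle-like cells (20.4 CPM, 13 UMIs). Small intestine lymphatic cells were above large intestine ones by 1.75 (95% counting interval 1.48 to 2.04) log2, against a median of 0.05 over all genes. With each cell thinned to 2000 UMIs, 72.5% of 258 small intestine lymphatic endothelial-like cells held a Col23a1 UMI (exact interval 66.6% to 77.8%; 89 cells were too shallow), against 26.1% of 115 in the large intestine (18.3% to 35.1%; 90 too shallow). Unthinned shares were 71.8% and 33.7%, at median depths of 3509 and 2292 UMIs. T, NK or innate lymphoid-like cells, which should lack the gene, held it in 0 of 57 and 0 of 76 thinned cells, which allows shares of up to 5.26% and 3.95% by the 3-count limit (exact upper bounds 6.27% and 4.74%).

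The multiplexins Col15a1 and Col18a1, whose ends can be cut off as anti-angiogenic fragments, were shared by endothelium and mesenchyme. Col15a1 stood at 303 CPM in small intestine blood endothelial-like cells and 245 in mesenchyme, a log2 difference of 0.31 (-0.21 to 0.80) within counting error. Large intestine levels were 518 and 194, a lead of 1.42 (1.19 to 1.65). Over fibroblast-like cells alone, at 265 CPM, the lead was 0.97 (0.733 to 1.199), short of 2-fold, and their cluster 20 stood higher, at 588. Its small-over-large log2 ratio in blood endothelial-like cells was -0.77 (95% counting interval -1.28 to -0.30), where the median over all genes was -0.34. Col18a1 stood at 226 in small intestine lymphatic endothelial-like cells against 165 in mesenchyme, and at 418 against 102 in the large intestine. Its lead over mesenchyme was 0.45 (0.13 to 0.78) and 2.03 (1.79 to 2.27), and over the large intestine pericyte-like class alone, at 220.4 CPM, it was 0.92 (0.61 to 1.24), short of 2-fold. The 19 pericyte-like cells set apart by finer clustering stood at 342 (30 UMIs). The Col18a1 level of small intestine lymphatic cells was below that of large intestine ones, at a log2 ratio of -0.89 (95% counting interval -1.14 to -0.63). Col13a1, another transmembrane collagen of cell contacts, was led by blood endothelial-like cells in the large intestine at 211 CPM, 3.13 log2 (2.30 to 4.06) above the pericyte-like class (24.1 CPM, 14 UMIs), all of whose Col13a1 UMIs lay in cluster 38. Of its 108 UMIs 84 lay in the blood endothelial-like cells, so it passed the minimum only through them.

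Low counts of a pair of collagens lay in epithelial classes. Col8a1 in the large intestine had more of its UMIs in goblet-like cells (773, or 45.2%) than in mesenchyme (577), at 35.3 CPM of the goblet class, whose median depth was 27924.5 UMIs. With cells thinned to 2000 UMIs, 5.87% of 784 goblet-like cells held it (4.33% to 7.75%; unthinned 34.5%), against 0 of 76 T, NK or innate lymphoid-like and 0 of 107 B-like cells, which allows up to 3.95% and 2.80% by the 3-count limit. The exact upper bounds are 4.74% and 3.39%, so the interval of the T, NK or innate lymphoid-like cells overlaps that of the goblet-like cells. Small intestine goblet-like cells held 1 Col8a1 UMI. Col15a1 in tuft-like cells stood at 45.1 and 30.1 CPM of small and large intestine (71 and 37 UMIs). Thinned shares of tuft-like cells with Col15a1 were 10.1% (4.95% to 17.8%) and 5.26% (1.45% to 12.9%), against 0% (0% to 6.27%) and 1.32% (0.0333% to 7.11%) of T, NK or innate lymphoid-like cells, and the intervals overlap in both tissues. Col7a1, the anchoring fibril chain that ties epithelium to the matrix below, had only 28 and 14 UMIs in the kept cells of small and large intestine. Of chains below 100 UMIs, Col9a3 had 15 of its 35 large intestine UMIs in tuft-like cells, and Col11a2 had 10 of its 33 small intestine UMIs in macrophage or monocyte-like cells.

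Genes that make, trim and break down collagen were taken from 6 lists by role, and counts of those led by mesenchyme are set against 1.98% and 3.16% of all genes in the small and large intestine. Of chain modification genes, 2 of 10 past the minimum in the small intestine and 2 of 14 in the large were led by mesenchyme. Serpinh1, the collagen chaperone HSP47, stood at 1076 CPM in small intestine mesenchyme, 1.64 log2 (1.23 to 2.09) above the next class, and at 1516 in the large, where its lead of 0.97 (0.80 to 1.14) was short of 2-fold. Ppib, a prolyl isomerase of general secretion, was highest in goblet-like cells of the small intestine (891 CPM), and Mia3, which loads large cargo for export, was led by them (266). Propeptide processing and crosslinking genes were led by mesenchyme 5 of 6 and 5 of 8 times, among them Pcolce, which speeds the trimming of procollagen, at 409.7 and 597 CPM. Of small proteoglycans and matrix partners 5 of 7 and 4 of 7 were led by mesenchyme, with Dcn at 12368 and 12235. Dcn and Lum also served as fibroblast markers when classes were named, so they add nothing on the identity of the class.

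Breakdown was divided among cell classes. Mesenchyme led 1 of 6 collagenase and uptake genes in the small intestine and 5 of 8 in the large, Mmp2 among them in both (371 and 366 CPM). Timp3, an inhibitor of matrix proteases, was led by lymphatic endothelial-like cells in both (3154 and 3158), Mmp9 and Mmp13 by macrophage or monocyte-like cells in the small intestine (521 and 258), and Mmp13 by unnamed cluster 19 in the large (243). Of collagen receptors, Ddr2 was led by mesenchyme in both libraries (185 and 239.9) and Itga1, the integrin subunit for network collagens, by blood endothelial-like cells (1094 and 757). Basement membrane partners were led by mesenchyme for 2 of 13 genes in each library, and by blood endothelial-like cells for 3 of 13 (2.18% and 2.01% of all genes), including Hspg2, the proteoglycan perlecan, at 612 and 581. Small intestine lymphatic endothelial-like cells led Lama4 and Nid2.

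Sections of the 2 tissues were compared over all spots; fewer cells of a type and less RNA per cell cannot be told apart in them. Of 29 collagens past the minimum, 7 were at least 2-fold higher in both small intestine sections than in both large intestine sections (background 10.4% of 14253 genes) and 2 were higher in the large intestine (9.93%). The median log2 difference of the 29 was 0.72, small over large, and that of all genes -0.02. Collagens in sum made up 1885 and 2207 CPM of the small intestine and 1463 and 1412 of the large intestine sections. Leaving out small intestine section 1 raised the first count from 7 to 11, adding Col6a3, Col9a2, Col4a1 and Col6a1. Leaving mitochondrial and ribosomal protein genes out of the totals lowered it to 5, without Col4a2 and Col13a1.

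The anchoring fibril chain Col7a1 had the highest mean log2 difference of the 29, and it passed the minimum only through the small intestine, with 208 UMIs there and 32 in the large. It stood at 3.82 and 3.82 CPM in the small intestine sections and 0.364 and 0.388 in the large intestine sections (93, 115, 15 and 17 UMIs), a mean log2 difference of 3.35. Col8a2, a short chain collagen, stood at 8.75 and 12.3 CPM in the small intestine sections and 1.79 and 2.24 in the large intestine sections (2.38). Col6a4, a type VI chain, stood at 19.1 and 24.6 CPM in the small intestine sections and 6.57 and 5.95 in the large intestine sections (1.80). In each of the 3 the lower small intestine section was well above the higher large intestine section.

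Among the network and fibrillar chains, Col4a2 stood at 134 and 185 CPM in the small intestine sections and 62.5 and 58.1 in the large intestine sections (1.41). Col1a1 stood at 325 and 384 CPM in the small intestine sections and 147 and 143 in the large intestine sections (1.29). Col27a1 stood at 10.2 and 16.2 CPM in the small intestine sections and 4.34 and 4.20 in the large intestine sections (1.63). Col13a1, at 3.74 and 5.02 against 1.503 and 1.78 CPM (1.42), completed the 7. Other chains were higher in the small intestine as well, but their nearest sections were less than 2-fold apart: Col4a1 stood at 194 and 244 against 101 and 94.6 (a gap of 0.94 log2 between the nearest sections), Col6a3 at 118 and 134 against 57.9 and 58.9 and Col1a2 at 321 and 363 against 207 and 197.

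The minor type IV pair went the other way. Col4a5 stood at 4.35 and 3.19 CPM in the small intestine sections and 11.2 and 11.1 in the large intestine sections, a mean log2 difference of -1.57. Col4a6 stood at 1.77 and 1.33 CPM in the small intestine sections and 4.29 and 4.61 in the large intestine sections (-1.52), on 83 and 379 UMIs, so it too passed the minimum only through 1 tissue. Both thus differed in the direction opposite to Col4a1 and Col4a2, and the 2 pairs are those whose promoters are printed above. Col3a1 was also lower in the small intestine without reaching 2-fold, at 251 and 259 against 483 and 458 CPM (-0.88), as were Col18a1 at 21.5 and 23.6 against 33.4 and 36.2 (-0.62) and Col8a1 at 5.34 and 5.98 against 9.11 and 8.74 (-0.66). Among those with levels near each other in all 4 sections were Col5a3, given below, Col5a1 (52.8 and 59.6 against 46.8 and 46.7), Col16a1 (21.3 and 21.0 against 22.8 and 23.8) and Col5a2 (44.9 and 55.0 against 45.9 and 45.4).

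The remaining chains past the minimum were less than 2-fold apart between their nearest sections. Col6a1 stood at 129 and 168 against 70.0 and 67.7 and Col6a2 at 116 and 126 against 71.7 and 67.6 CPM, small against large intestine, and the rarer Col6a5 at 3.74 and 3.52 against 1.94 and 2.24. Of the fibril-associated chains, Col12a1 stood at 26.9 and 30.5 against 23.6 and 22.3, Col14a1 at 20.2 and 18.9 against 14.4 and 13.6, Col20a1 at 2.14 and 3.26 against 2.01 and 1.94 and Col9a2 at 0.903 and 1.56 against 0.509 and 0.776. The multiplexin Col15a1 stood at 26.6 and 30.8 against 16.9 and 18.0 and the lymphatic-led Col23a1 at 3.65 and 4.25 against 2.69 and 2.83. Col5a3 stood at 9.44 and 11.9 against 9.21 and 10.4 and Col11a2, a fibrillar chain of cartilage, at 1.19 and 1.40 against 1.02 and 0.707. All of these had higher means in the small intestine, by 0.12 log2 (Col5a3) to 1.11 (Col6a1). With a minimum of 20 UMIs in place of 100, Col17a1, the transmembrane collagen of epithelial hemidesmosomes, was also called higher in the small intestine, at 0.246 and 0.332 against 0.0485 and 0.0913, as was the fibrillar chain Col11a1, at 0.534 and 0.964 against 0.194 and 0.160.

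By kind of assembly, the 7 were 2 of 8 fibrillar, 1 of 4 basement membrane network, 1 of 5 beaded filament, 1 of 1 anchoring fibril, 1 of 2 short chain and 1 of 2 transmembrane chains, with none of 5 fibril-associated and none of 2 multiplexin chains. Summed muscle markers were also higher in the small intestine, but not all collagens shared their order. Of the 7, Col6a4 and Col7a1 were higher in surface than muscle spots of the small intestine, as given below. Col3a1 and Col8a1, highest in muscle spots of both tissues, were lower in small intestine sections. Smooth muscle markers summed to 9677 and 13060 CPM in small intestine and 2488 and 2450 in large intestine sections. Pericyte markers summed to 468 and 624 against 75.7 and 69.6. Fibroblast markers summed to 1251 and 1289 against 1063 and 1075, and lymphatic endothelial markers to 72.6 and 76.2 against 127 and 116. Their part in the collagen differences was not tested.

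**Figure D2:**
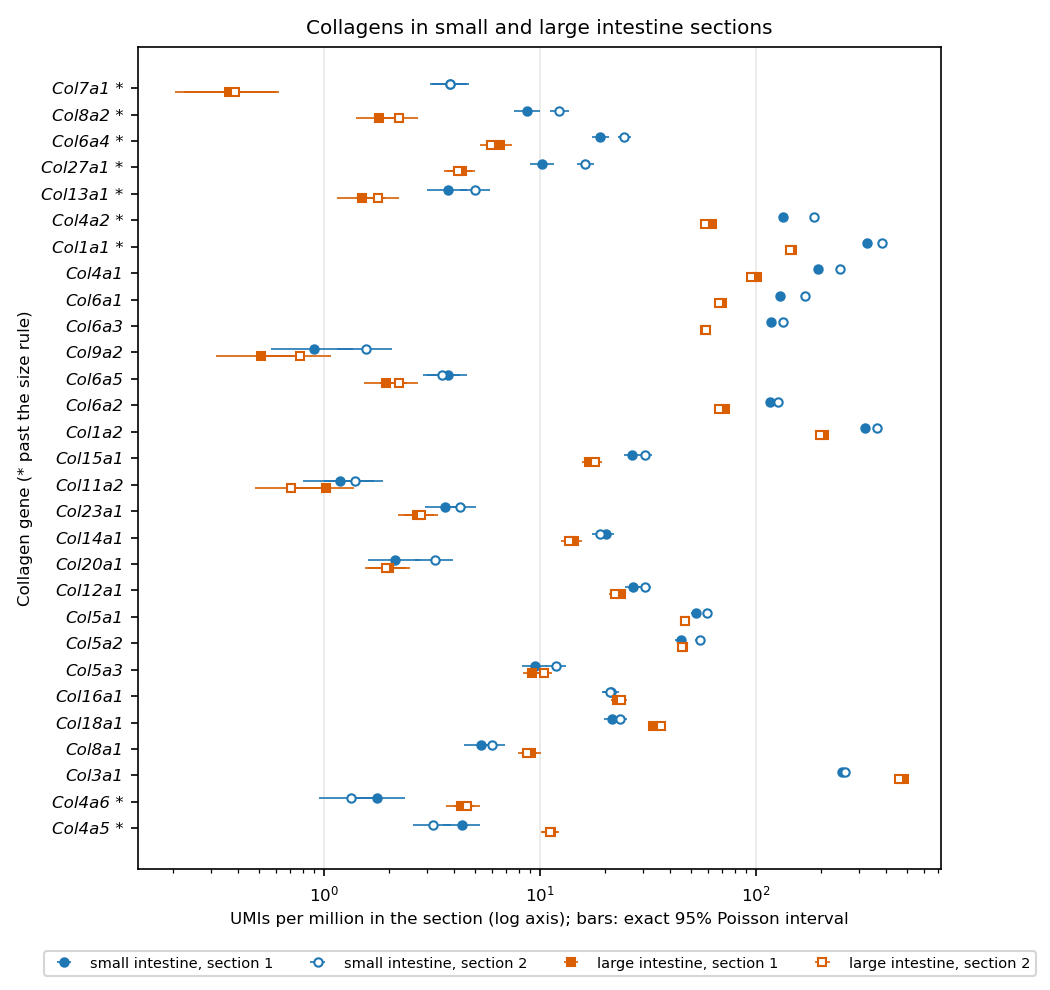
Levels of collagen genes past the minimum in each of the 4 Visium sections (log scale, CPM), 2 technical duplicates of each tissue. Col7a1, Col8a2 and Col6a4 show the widest gaps in favour of the small intestine, and Col4a5 and Col4a6 the reverse.

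Of the 62 pathway genes of the 6 lists past the minimum, 6 were higher in the small intestine (9.68%, where 10.4% of all genes were) and 4 in the large (6.45%, against 9.93%), shares no higher than those of all genes. Higher in the small intestine were Itgb1, the shared subunit of collagen-binding integrins (306 and 383 against 148 and 145), Itga1 (94.5 and 126 against 42.2 and 37.0), Hspg2 (113 and 133 against 46.6 and 54.4), the crosslinking enzyme Loxl2 (39.5 and 52.8 against 17.9 and 16.4), the prolyl hydroxylase P3h2 (12.4 and 13.2 against 4.65 and 4.20) and Mmp9 (7.92 and 8.01 against 0.654 and 0.821). Higher in the large intestine were Ppib (189.8 and 162 against 452 and 442), Postn, a matrix protein of fibroblasts (64.1 and 74.2 against 169 and 159), Mmp2 (22.5 and 24.1 against 54.6 and 57.2) and Lama2 (4.56 and 3.89 against 13.1 and 11.8). Serpinh1 stood at 118 and 132 against 71.0 and 70.8 and Dcn at 194 and 194 against 185 and 182, neither past 2-fold.

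Spots were then placed in regions by 3 gene lists without collagens: muscle (10 genes such as Myh11 and Des), crypt (15 genes such as Lgr5 and Mki67) and surface (8 genes for each tissue, such as Apoa4 in the small and Aqp8 in the large intestine). A spot belonged to a region when it was among the highest 25% of its section for that list and for no other. This gave 409 and 501 muscle, 409 and 490 crypt and 492 and 618 surface spots in the small intestine sections, and 412 and 420, 426 and 429, and 508 and 532 in the large. In each tissue 26 collagens passed the minimum. Levels in regions are in CPM, with section 1 before section 2.

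Summed collagen was highest in muscle spots in both tissues. Of 25 collagens past the minimum in both, 2, Col6a3 and Col6a5, were called in opposite directions between crypt and surface spots, higher in crypt in the small intestine and in surface in the large. Summed collagen of the small intestine went from 5376 and 6092 CPM in muscle spots to 1777 and 2196 in crypt and 666 and 668 in surface spots. Large intestine sums were 3784 and 3350 in muscle, 1054 and 959 in crypt and 1215 and 1177 in surface spots. Smooth muscle markers, some of which defined the muscle spots, summed to 44314 and 52028 CPM in small intestine muscle spots and at most 3603 in its crypt and surface spots, and to 17163 and 14889 against at most 738 in the large intestine. Fibroblast markers of the small intestine summed to 2275 and 2231 in muscle, 1383 and 1551 in crypt and 808 and 801 in surface spots, and in the large intestine to 2823 and 2638, 773 and 775, and 759.5 and 744. Their part in the collagen values was not tested.

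Of 26 small intestine collagens, 15 were higher in muscle than crypt spots in both sections (background 15.9% of 12583 genes) and 1 in crypt than muscle spots (10.3%). Against surface spots 23 were higher in muscle (38.1%) and 2 in surface (13.1%). Crypt spots were above surface spots for 15 (34.7%) and below for 1 (9.78%). Of 26 large intestine collagens, 23 were higher in muscle than crypt spots (15.6% of 13141 genes) and none in crypt (3.58%). Against surface spots 19 were higher in muscle (32.8%) and 1 in surface (6.08%). Between crypt and surface 3 were higher in crypt (27.8%) and 3 in surface (9.09%). The median log2 ratio of collagens for crypt over surface was 1.42 in the small intestine, against 0.76 over all genes, and -0.18 in the large, against 0.54. The small counts moved with single sections: without small intestine section 1, 2 collagens were higher in crypt than muscle spots, without small intestine section 2, 3 were higher in surface than crypt spots, and without large intestine section 1, 2 were higher in surface than muscle spots.

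**Figure D3:**
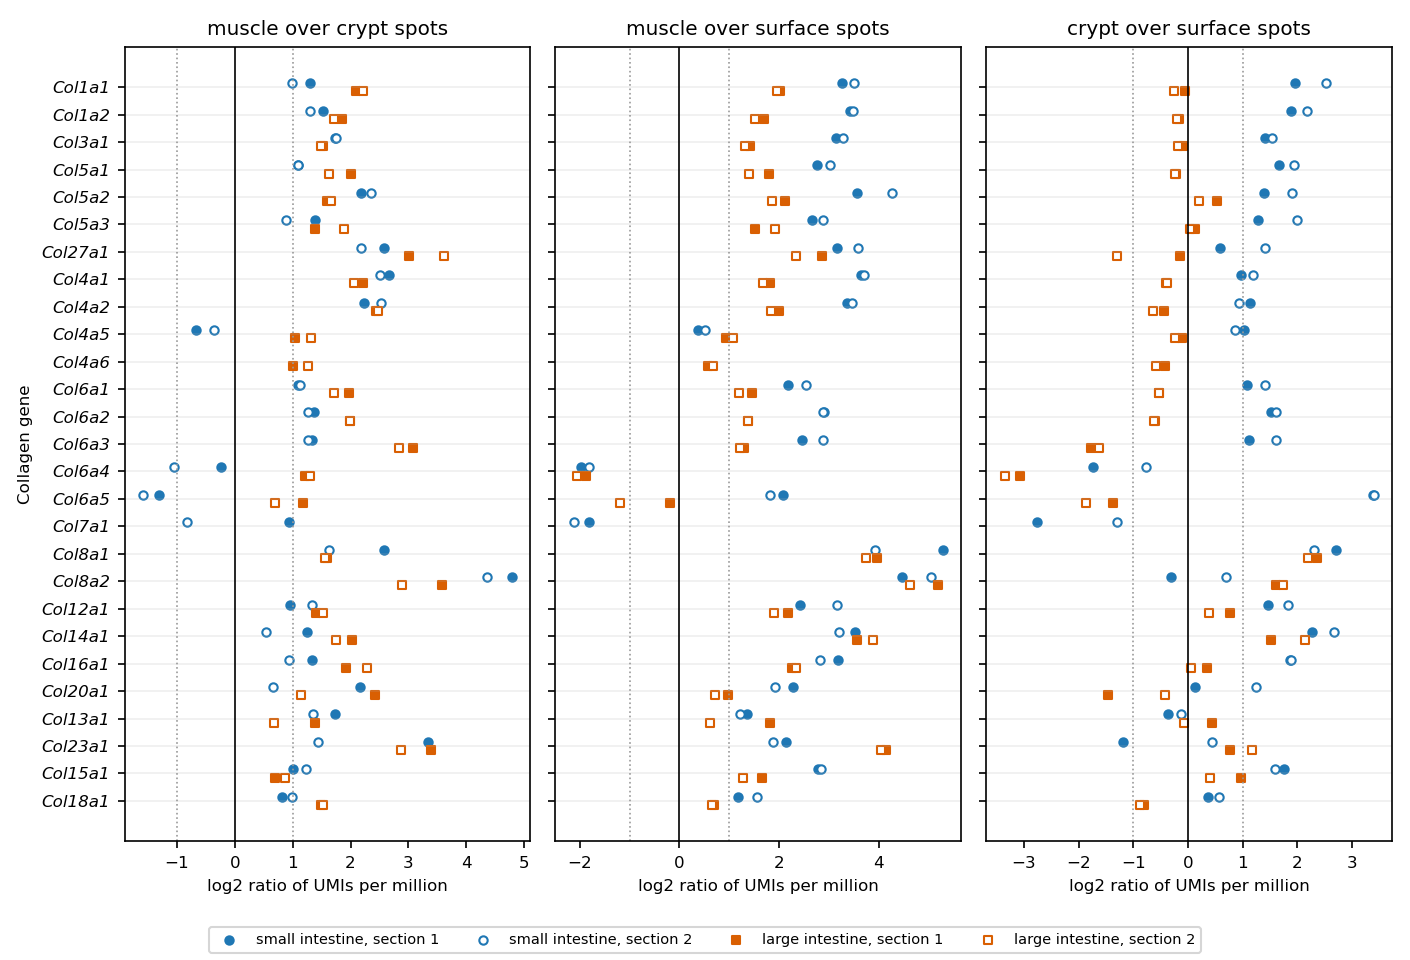
Log2 ratios of collagen levels between muscle, crypt and surface spots, 1 point for each section, for the small and large intestine. Nearly all collagens lie above 0 for muscle over crypt and muscle over surface, while crypt over surface is mostly above 0 in the small intestine and scattered about 0 in the large.

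Fibrillar chains were ordered muscle, crypt, surface in the small intestine. Col3a1 stood at 737 and 742 in muscle spots, 222 and 222 in crypt spots and 83.2 and 76.4 in surface spots of the 2 small intestine sections. Its large intestine levels were 1050.5 and 918 in muscle spots, 366 and 326 in crypt spots and 391 and 368 in surface spots. The surface spots of the large intestine were thus no lower than its crypt spots, and several times above those of the small intestine. Col1a1 stood at 882 and 1008 in muscle spots, 359 and 510.3 in crypt spots and 91.8 and 88.3 in surface spots in the small intestine, and its muscle-over-crypt log2 ratios of 1.29 and 0.98 fell short of 2-fold in 1 section. Large intestine Col1a1 stood at 447 and 414 in muscle spots, 105 and 89.1 in crypt spots and 109.8 and 106 in surface spots.

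The main basement membrane chains were highest in muscle spots. Col4a1 stood at 710.0 and 809 in muscle spots, 113 and 141 in crypt spots and 57.0 and 61.6 in surface spots in the small intestine. Large intestine levels of Col4a1 were 314 and 263 in muscle spots, 67.3 and 63.2 in crypt spots and 89.1 and 82.7 in surface spots. Col4a2 followed it in every region, at 450.1 and 596 in muscle spots, 95.8 and 104 in crypt spots and 43.7 and 53.9 in surface spots in the small intestine. The minor chain Col4a5 did not follow them in the small intestine, at 4.02 and 3.23 in muscle spots, 6.39 and 4.15 in crypt spots and 3.11 and 2.27 in surface spots, where no pair of regions reached 2-fold in both sections. In the large intestine it stood at 20.0 and 20.6 in muscle spots, 9.77 and 8.32 in crypt spots and 10.5 and 9.84 in surface spots, higher in muscle than crypt spots.

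Col8a2 was the collagen with the largest muscle-over-crypt ratio among those past the minimum in the small intestine, 4.79 and 4.36 log2. It stood at 39.2 and 50.2 in muscle spots, 1.42 and 2.44 in crypt spots and 1.76 and 1.51 in surface spots there. Large intestine levels of Col8a2 were 10.9 and 10.8 in muscle spots, 0.906 and 1.46 in crypt spots and 0.198 and 0.435 in surface spots. Col8a2 passed the minimum there only through the muscle spots, which held 44 and 53 of its 172 UMIs. Its relative Col8a1 stood at 21.1 and 18.1 in muscle spots, 3.55 and 5.86 in crypt spots and 0.542 and 1.19 in surface spots in the small intestine. The large intestine held Col8a1 at 33.8 and 29.2 in muscle spots, 11.2 and 9.98 in crypt spots and 2.18 and 2.18 in surface spots. Col14a1 and Col8a1 were, with Col8a2, the 3 collagens at least 2-fold above surface level in crypt spots of both large intestine sections, Col14a1 at 56.0 and 42.5 in muscle spots, 13.7 and 12.7 in crypt spots and 4.75 and 2.87 in surface spots. Col23a1, led by lymphatic endothelial-like cells among the cell classes, was highest in muscle spots, at 9.54 and 7.89 in muscle spots, 0.946 and 2.93 in crypt spots and 2.17 and 2.16 in surface spots in the small intestine. The large intestine held Col23a1 at 15.8 and 12.9 in muscle spots, 1.51 and 1.77 in crypt spots and 0.890 and 0.784 in surface spots. Lymphatic endothelial markers were also highest there. In the small intestine they summed to 154 and 152 CPM in muscle spots, 103 and 135 in crypt spots and 20.7 and 18.8 in surface spots. Small intestine crypt spots were thus near muscle spots in these markers, but near surface spots in Col23a1. In the large intestine the markers summed to 597 and 455 in muscle spots against 29.1 and 28.9 in surface spots. The part of these markers was not tested.

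The collagens at least 2-fold above muscle level in another region were type VI and VII chains. Col6a4 was higher in surface than muscle spots in both tissues, at 6.78 and 7.18 in muscle spots, 8.04 and 14.9 in crypt spots and 26.7 and 25.3 in surface spots in the small intestine (197 and 234 UMIs in surface spots). Large intestine levels of Col6a4 were 3.95 and 3.07 in muscle spots, 1.71 and 1.25 in crypt spots and 14.4 and 12.7 in surface spots (146 and 146 UMIs in surface spots). Its muscle-over-surface log2 ratios were -1.98 and -1.82 in the small and -1.87 and -2.05 in the large intestine. Col7a1 stood at 2.26 and 1.79 in muscle spots, 1.18 and 3.17 in crypt spots and 7.99 and 7.78 in surface spots in the small intestine, on 59 and 72 UMIs in surface and 5 and 13 in crypt spots, and was too rare in the large intestine to compare. Of its 208 small intestine UMIs so many lay in surface spots that it passed the minimum only through them. Col6a5 was the single collagen higher in small intestine crypt than muscle spots, at 4.02 and 3.41 in muscle spots, 9.93 and 10.3 in crypt spots and 0.948 and 0.973 in surface spots (42 and 42 UMIs in crypt and 16 and 19 in muscle spots), and it was no longer called when regions took the highest 33.3% of spots. Large intestine Col6a5 had its highest level in surface spots, at 2.96 and 1.84 in muscle spots, 1.31 and 1.14 in crypt spots and 3.36 and 4.18 in surface spots. It passed the minimum there only through the surface spots, which held 34 and 48 of its 178 UMIs.

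The common type VI chain Col6a3 changed order between tissues. In the small intestine it stood at 292 and 332 in muscle spots, 115 and 138 in crypt spots and 52.8 and 45.2 in surface spots, and its crypt-over-surface log2 ratios were 1.13 and 1.61. In the large intestine it stood at 171 and 158 in muscle spots, 20.2 and 22.1 in crypt spots and 69.2 and 68.4 in surface spots, with crypt-over-surface ratios of -1.77 and -1.63. Crypt spots were thus above surface spots in both small intestine sections and below them in both large intestine sections. Its partner Col6a1 stood at 294 and 406 in muscle spots, 139 and 187 in crypt spots and 65.3 and 70.3 in surface spots in the small intestine. The large intestine held Col6a1 at 184 and 153 in muscle spots, 46.5 and 46.7 in crypt spots and 66.7 and 67.1 in surface spots.

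**Figure D4:**
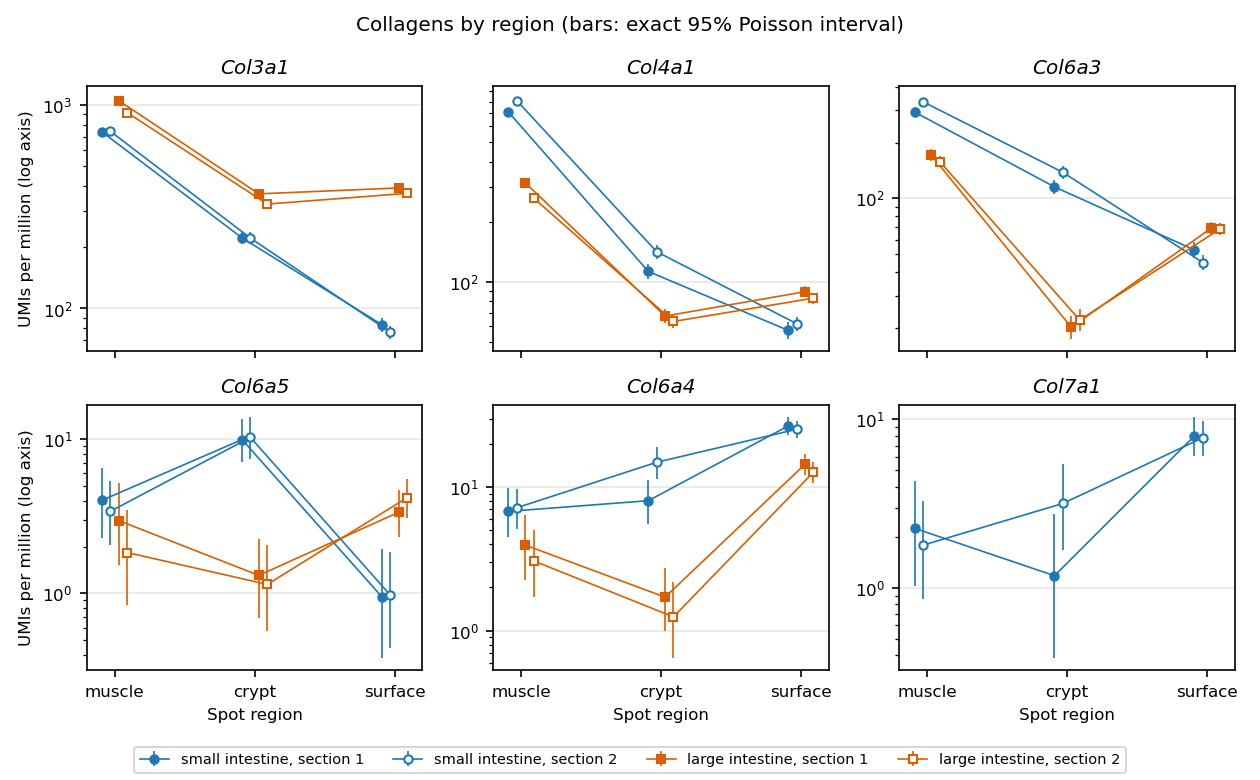
Levels of 6 collagen genes in muscle, crypt and surface spots of each section (log scale, CPM). The points of the duplicate sections lie apart in small intestine crypt spots for Col7a1 (1.18 and 3.17) and Col6a4 (8.04 and 14.9), and mostly closer together elsewhere. Col6a4 is highest in surface spots in both tissues.

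For muscle over crypt, the pathway lists went mostly the same way as the collagens. In small intestine sections, where 15.9% of all genes were higher in muscle spots, 8 of 14 chain modification genes, 5 of 7 processing genes and 6 of 7 proteoglycans were higher in muscle, and none was higher in crypt. The large intestine (15.6% of all genes) gave 8 of 14, 7 of 8 and 7 of 7, again with none higher in crypt. Collagenases and uptake genes followed in 3 of 9 and 5 of 8 cases and basement membrane partners in 6 of 13 and 10 of 14, small and large intestine. Among receptors, Itga2, an epithelial integrin subunit, was the exception in both tissues, at 6.53 and 5.92 in muscle spots, 23.6 and 29.8 in crypt spots and 8.94 and 3.57 in surface spots in the small intestine. The large intestine held Itga2 at 8.14 and 8.38 in muscle spots, 22.0 and 21.3 in crypt spots and 4.45 and 5.66 in surface spots. Between large intestine crypt and surface spots 2 of 14 basement membrane partners were higher in crypt (27.8% of all genes) and 4 in surface (9.09%). Of these partners, Lama3 and Lamb3, chains of the laminin of epithelial anchoring, were higher in surface than muscle spots in both tissues: Lamb3 stood at 22.8 and 23.9 in muscle spots, 17.0 and 24.9 in crypt spots and 140.0 and 193 in surface spots in the small intestine. The large intestine held Lamb3 at 53.3 and 65.0 in muscle spots, 23.3 and 23.1 in crypt spots and 162 and 172 in surface spots. Of collagenases, Mmp13 was higher in surface than muscle spots in both, at 1.76 and 2.51 in muscle spots, 2.60 and 2.93 in crypt spots and 9.34 and 8.11 in surface spots of the small intestine. In the large it stood at 2.47 and 1.23 in muscle spots, 1.61 and 1.04 in crypt spots and 10.2 and 8.71 in surface spots.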

How the data were processed

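The authors deposited UMI counts per gene and barcode, made with Cell Ranger 6.0.1 (cells) and Space Ranger 1.2.1 (sections) per the file headers, on mm10 per the submitters' processing notes. Depths are given in the report. Positions of spots and images were not used here. Cells were kept from 500 genes upwards and up to a mitochondrial share of 20%, and doublets were called with Scrublet at an expected 0.8% per 1000 cells (61 and 306 removed). Clusters came from scanpy 1.11.5 (2000 variable genes without the collagens and pathway lists, 30 components, 15 neighbours, Leiden in its igraph version at resolution 1, seed 0) under Python 3.11.15. They were named from 25 marker lists, each needing 3 markers or more. The colonocyte list was not used in the small intestine, nor the enterocyte and Paneth lists in the large, a change made after seeing the data, as were the pooling of the mesenchyme, the T, NK or innate lymphoid reference class beside the 19 small intestine B-like cells, and the description of clusters at resolution 2. Spots with at least 500 UMIs were kept. UMIs were summed over each class, section or region and scaled to CPM.

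Described genes were collagens with at least 100 UMIs in a library or over the sections. Rarer ones were named where 1 class held many of their UMIs. The rule for pathway genes was the 2 of each list with the most UMIs in fibroblast-like cells and those opposite to most of their list. It was not followed in full, and Sparc, Timp2, Nid1 and Lamc1 were among those left out. The other pathway genes named were chosen after their values were seen. The collagens, lists and rules were chosen with earlier results of these data known. All 44 gene IDs matched the gene name table. Intervals are exact Poisson (levels), exact Clopper-Pearson (shares) and exact conditional (ratios) at 95%, and cover counting error only. The limit that a count of 0 allows was set at 3 counts of the total. The scripts were tested on simulated data. Alternatives were the filters, doublets, resolution, minimum UMIs, scaling, width of regions, spot clusters and leaving out each section.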

Additional observations from a re-analysis of the deposited data

Results flagged for a closer look

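Ratios between regions that went one way in both sections of the small intestine and the opposite way in both sections of the large intestine are given here as the small intestine's mean log2 ratio minus the large intestine's. With technical duplicates of 1 kind of sample in each tissue these differences were not tested. Most concerned crypt over surface spots. The widest was that of the type VI chain Col6a5, at 5.01, followed by Col6a3 at 3.07. The type I chains differed by 2.41 (Col1a1) and 2.22 (Col1a2), the other common type VI chains by 2.18 (Col6a2) and 1.77 (Col6a1), and the fibrillar chains Col5a1, Col27a1 and Col3a1 by 2.02, 1.72 and 1.61. Col20a1 differed by 1.62, the type IV chains Col4a2, Col4a1 and Col4a5 by 1.58, 1.49 and 1.13, and the multiplexin Col18a1 by 1.30. The 14 ratios were above 0 in both small intestine sections and below 0 in both large intestine sections, but of these genes only Col6a3 and Col6a5 reached 2-fold in both tissues. In the large intestine several means lay near 0, such as -0.14 for Col3a1, -0.16 for Col1a1 and -0.17 for Col4a5. For muscle over crypt spots the difference was -2.38 for Col6a5, -1.90 for Col6a4 and -1.69 for Col4a5, with ratios below 0 in the small intestine and above 0 in the large, and none of the 3 was called in opposite directions. For muscle over surface spots it was 2.63 for Col6a5, with ratios above 0 in the small intestine and below 0 in the large that were not called in opposite directions. Col6a5 rested on 42 and 42 UMIs in small intestine crypt spots and 7 and 9 in surface spots. In the large intestine Col6a5 passed the minimum only through the surface spots. Fibroblast markers moved with region as well, at 1383 and 1551 CPM in crypt and 808 and 801 in surface spots of the small intestine, against 773 and 775 and 759.5 and 744 in the large, and their part was not tested.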

How the results depend on the processing

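Levels of rare chains rest on few UMIs, and the intervals cover counting error only. No paired analysis was possible because no test was fitted and duplicate sections of the 2 tissues share only a number. Of 15 small intestine collagens led by 1 class, the count was 6 under the stricter cell filter, 7 at resolution 2 and 7 with the collagens and pathway genes put back into the clustering; the large intestine count of 7 became 15 under the looser filter. Pooled, the mesenchyme led 9 to 14 collagens in the small and 11 to 17 in the large intestine over the alternatives. Under the looser filter, where glia-like cells entered, the log2 ratio of the mesenchyme over the next class turned negative for Col16a1 (-0.88), Col5a3 (-0.74) and Col12a1 (-0.67) in the small intestine. In the large it was -1.34 for Col27a1, -1.49 for Col16a1, -1.94 for Col5a3, -0.21 for Col12a1 and -0.14 for Col6a5, and the lymphatic lead of Col18a1 became -0.96. No other direction reversed in 318 ratios of leading classes, 936 of regions, 59 of tissues within a class and 203 of sections. The count higher in small intestine sections, 7, ranged from 7 to 11 with 1 section left out. Leaving out sections gave 1 to 2 for crypt over muscle and 1 to 3 for surface over crypt in the small intestine, and 1 to 2 for surface over muscle in the large. With regions of the highest 33.3% of spots, small intestine crypt over muscle gave 0, surface over crypt 2 and large intestine crypt over surface 1; with the highest 10%, small intestine surface over crypt gave 2. Clusters of spots in place of regions gave 1 for small intestine surface over muscle, and no minimum gave 30 for large intestine muscle over surface. The cause of these changes was not tested, except that no minimum admits more genes.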
